A study of Mus musculus with 15 samples.

Results

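The genes described here are 10 markers of the exit from naive pluripotency: *Otx2*, *Pou3f1*, *Fgf5*, *Lef1*, *Utf1*, *Trh*, *Epha2*, *Lefty1*, *Lefty2* and *Nodal*. They were taken by name from a list of formative and early differentiation genes and of Nodal signalling, and they are 10 of the 21727 transcripts counted. They were chosen by their role and by the spread of their values between clones and cell lines in the 15 libraries of this experiment. Differences in level between clones and lines are therefore given as a description, without a test. Tests are given for the ribosome immunoprecipitation (IP) against the fragments of all ribosomes, a contrast other than that between clones and lines. The ratio of IP to all fragments was also tested between the tagged lines, and that is a comparison of lines. The choice was made with the same 15 libraries known, so these tests are not independent evidence about the genes. All 10 have a transcript in the table, and 9 passed the filter on low counts, a CPM (counts scaled to a common library total) over 2 in at least 14 of the 15 libraries. The tenth, *Fgf5*, is given by its counts.

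The data are ribosome profiling counts from mouse embryonic stem cells (mESCs) of the line E14Tg2a.4, grown in serum and leukemia inhibitory factor (LIF) on gelatin. Rps27 and Rps27l are paralogous proteins of the small ribosomal subunit, called eS27 and eS27L in the sample labels. The *Rps27-FLAG* line carries a 3xFLAG tag, introduced by CRISPR at the C terminus of endogenous *Rps27* on both alleles. The *Rps27l-FLAG* line carries the same tag on *Rps27l*, and the wild-type (WT) line is untagged. Each line is represented by 3 clones grown from single cells, 2b12, 2c3 and 2c4 for *Rps27-FLAG*, 4a2, 4a3 and 4b7 for *Rps27l-FLAG* and 5a1, 5a2 and 5a3 for WT. These clones are replicates 1, 2 and 3, and the replicate number is also the sequencing batch. All cells were treated with cycloheximide before lysis. Total RPFs (9 libraries) are the ribosome-protected fragments of every ribosome in a clone's lysate. IP RPFs (6 libraries) are those of the ribosomes that anti-FLAG beads pulled down from the tagged clones. There were no IP libraries from WT.

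Library totals ranged from 3972152 to 8064166 counted fragments, with IP libraries between 3972152 and 6673935. Of the 10 markers of mESCs that were checked, 1 (*Utf1*) is also among the genes described here. All 10, *Pou5f1*, *Sox2* and *Nanog* among them, were above 2 normalized CPM in all 15 libraries. Of 8 primitive streak and mesoderm markers, *Eomes* and *Kdr* passed this level in all libraries, and the other 6, including *T*, *Mixl1* and *Gsc*, stayed below it in every library. Summed over these 8 genes the level ranged from 13.2 to 37.8 normalized CPM in the total RPFs. The 8 primitive endoderm markers summed to 207 to 314, of which *Lama1* alone gave 178 to 288. Of 6 neural markers 3 passed the level in all libraries, and the 6 summed to 147 to 179, with *Tubb3* at 100 to 125. Of 6 trophoblast markers 3 passed it in all libraries (sum 97.2 to 187), and of 6 fibroblast markers 1 did (sum 11.4 to 30.9). The clones 2b12, 4a2, 5a1 and 4a3 stood apart in *Tet1*, a DNA demethylase, with 1.95 to 3.08 normalized CPM in total RPFs against 417 to 431 in the other 5 clones. These 4 clones are spread over the 3 lines. They comprise every replicate 1 clone (2b12, 4a2 and 5a1) and 4a3, which like 4a2 is *Rps27l-FLAG*. The parts of *Tet1* and of the replicate number in a difference between them and the other clones largely cannot be told apart. Values without these 4 clones are given below where they bear on a result.

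Naive pluripotency is the state of the epiblast before implantation, and LIF holds cultured mESCs in or near it. On leaving it, cells pass through a formative phase in which *Otx2* and *Pou3f1*, both homeodomain transcription factors, and the growth factor *Fgf5* rise while naive factors such as *Klf4* and *Zfp42* fall. Nodal is a secreted ligand of the TGF-beta family that signals through activin receptors and Smad proteins with the co-receptor Tdgf1. Lefty1 and Lefty2 are secreted inhibitors of Nodal and are themselves induced by Nodal signalling. Cultures in serum and LIF hold a mixture of cells nearer to and farther from the naive state. A count per library cannot tell fewer cells in a state from fewer fragments per cell, and RPFs alone cannot tell the amount of an mRNA from the number of ribosomes on it.

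The likeness of *Lefty1* and *Lefty2* is described first, because it sets what can be counted for these neighbouring paralogs. *Lefty2* (chr1:180893108-180899103, plus strand, 4 exons, GRCm38) ends 35918 bases before *Lefty1* (chr1:180935022-180938400, plus strand, 4 exons). Their coding sequences (CDS) are both 1104 nt long without the stop codon and differ, laid side by side without gaps, at 90 positions, which leaves 91.8% identical. Most of the differences lie near the start, 57 of them in the first 280 nt. The longest stretch without a difference is 140 nt. A fragment that lies wholly in such a stretch matches both transcripts and has no unique alignment, so it is in neither count.

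Of the 1077 windows of 28 nt along each Lefty CDS, 651 (60.4%) occurred in no other transcript of the table and 426 were shared with the other paralog. At this window length the counts of both genes come from the same part of their CDS, and the levels of each are understated to the same degree. The share of 60.4% is approximate. Fragments of other lengths have other unique stretches, and the counts leave out codons at both ends of the CDS. Every window was unique for *Otx2*, *Fgf5*, *Lef1*, *Utf1*, *Trh* and *Nodal*. For *Pou3f1* 1307 of 1320 windows (99%) were unique, the rest shared with *Pou3f2* and *Pou3f3*, and for *Epha2* 2893 of 2904 (99.6%).

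**Figure D1:**
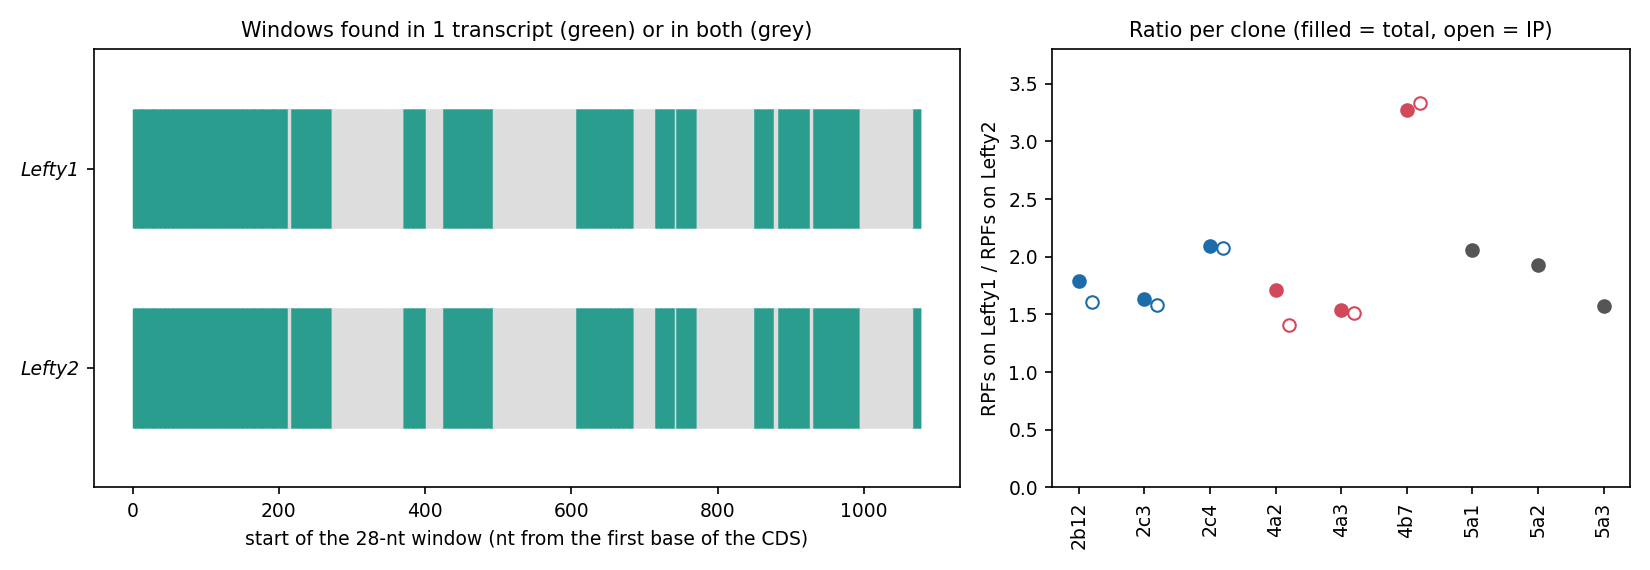
Left, each 28-nt window of the Lefty1 and Lefty2 CDS by its start (nt from the first base), green where it occurs in 1 transcript and grey where both genes hold it. Right, total RPFs (filled) and IP RPFs (open) on Lefty1 divided by those on Lefty2 in each clone (blue Rps27-FLAG, red Rps27l-FLAG, grey WT); clone 4b7 stands at 3.27 and 3.33, and the other clones lie between 1.41 and 2.09.

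Per kilobase of CDS, the mean over the 9 total RPF libraries was highest for *Utf1*, at 525 ± 52.2 CPM per kb (SD, n = 9), followed by *Trh* at 454 ± 152, *Epha2* at 197 ± 28.6, *Nodal* at 159 ± 26 and *Lefty1* at 142 ± 31. *Lefty2* had 76.8 ± 24.3, *Lef1* 46.9 ± 12.8, *Otx2* 29.1 ± 7.76, *Pou3f1* 5.4 ± 1.28 and *Fgf5* 0.632 ± 0.489. The median of all 10085 tested transcripts was 25.6 CPM per kb, so the formative transcription factors *Otx2* and *Pou3f1* lay near and below it, whereas *Utf1* and *Trh* lay above 97.4% and 96.9% of transcripts. Several neighbours in this order were not apart. *Utf1* exceeded *Trh* in 6 of 9 clones, *Epha2* exceeded *Nodal* in 7 and *Nodal* exceeded *Lefty1* in 6. *Lefty1* exceeded *Lefty2* in all 9. Counted per kb of unique windows, *Lefty1* had 236 ± 51.2 and *Lefty2* 127 ± 40.3, which would put *Lefty1* above *Nodal* and *Epha2* in this order.

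**Figure D2:**
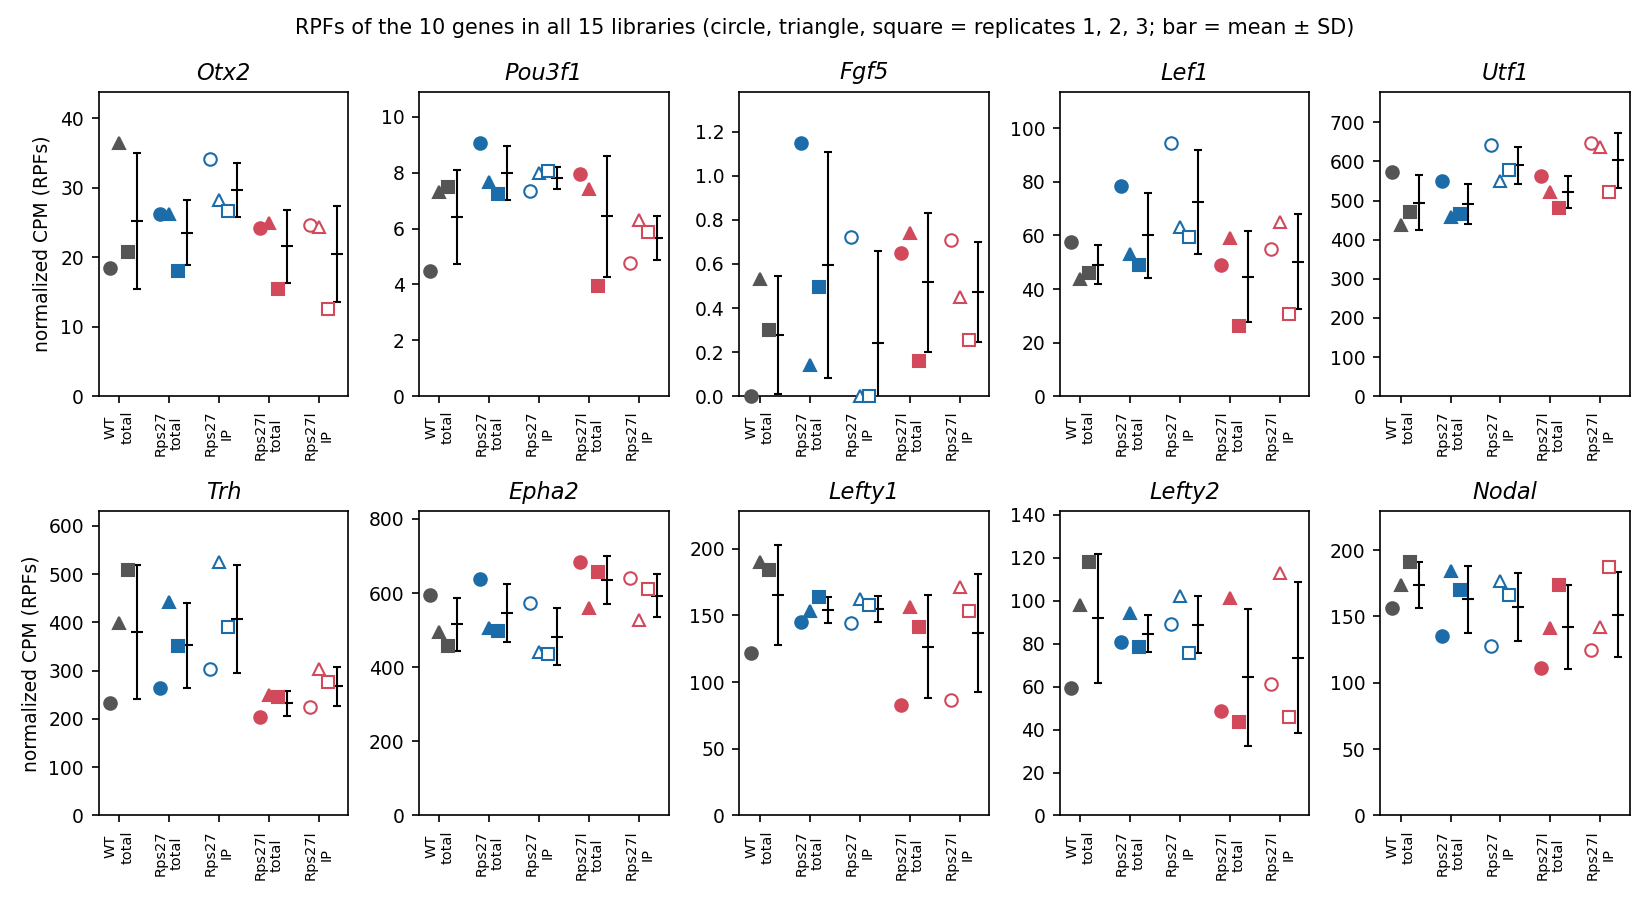
Normalized CPM of each gene (linear axis from 0, its own scale per gene) in all 15 libraries. Filled points are total RPFs, open points IP RPFs, grey WT, blue Rps27-FLAG and red Rps27l-FLAG, with mean and SD of each group of 3 beside the points; the lowest Lef1, Otx2 and Lefty2 values of both fractions belong to replicate 3 of Rps27l-FLAG (clone 4b7).

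Among the transcription factors, *Otx2* (chr14:48657851-48673819, minus strand, 5 exons) directs the step from naive to formative identity and later forebrain formation. Its total RPFs were 18.5, 36.5 and 20.8 normalized CPM in the WT clones 5a1, 5a2 and 5a3. They were 26.2, 26.3 and 18.1 in the *Rps27-FLAG* clones 2b12, 2c3 and 2c4 and 24.2, 25 and 15.5 in the *Rps27l-FLAG* clones 4a2, 4a3 and 4b7. The 3 lines overlapped, and the clones 5a2 and 4b7 were the ends of a 2.36-fold range. *Pou3f1* (chr4:124656807-124660655, plus strand, 1 exon), also known as Oct6, had 25 to 71 fragments in a total RPF library and the largest counting error of the tested genes. Its level was 4.48, 7.31 and 7.47 in WT, 9.07, 7.67 and 7.24 in *Rps27-FLAG* and 7.94, 7.4 and 3.95 in *Rps27l-FLAG*. Here too the lines overlapped, with 4b7 and 5a1 low. The SD over the 9 libraries was 0.39 on the log2 scale, of which a counting SD of 0.2 would be expected from the number of fragments alone.

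*Lef1* (chr3:131110471-131224356, plus strand, 10 exons) encodes a DNA-binding partner of beta-catenin in Wnt signalling. Its total RPFs were 57.5, 43.9 and 45.9 normalized CPM in WT, 78.3, 52.9 and 49 in *Rps27-FLAG* and 48.8, 59.1 and 26.1 in *Rps27l-FLAG*. Clone 2b12 was the highest and 4b7 the lowest, a 3-fold range and the widest of the 9 tested genes. *Utf1* (chr7:139943789-139945112, plus strand, 2 exons), a chromatin-associated factor of undifferentiated embryonic cells, varied least. It stood at 573, 438 and 472 in WT, 551, 458 and 467 in *Rps27-FLAG* and 562, 521 and 482 in *Rps27l-FLAG*. In each line the replicate 1 clone was the highest, and the whole range was 1.31-fold. All 4 clones in which *Tet1* was near 0 (521 to 573) lay above the other 5 (438 to 482), and without them the range was 0.14 on the log2 scale against 0.39 with all 9. The 4 clones include every replicate 1 clone, and the part of either grouping in the values of *Utf1* was not tested.

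*Trh* (chr6:92242061-92244650, minus strand, 3 exons) encodes the precursor of thyrotropin-releasing hormone. It had 232, 398 and 509 normalized CPM in WT, 265, 442 and 350 in *Rps27-FLAG* and 203, 250 and 245 in *Rps27l-FLAG*. All *Rps27l-FLAG* clones lay below all *Rps27-FLAG* clones, but the WT clone 5a1 lay among them. *Trh* was the only 1 of the 9 genes whose total RPFs did not overlap between these lines, where 11.5% of all tested transcripts did not. The *Tet1*-low clones 2b12, 4a2, 5a1 and 4a3 had *Trh* at 265, 203, 232 and 250, and the other 5 clones at 245 (4b7) and 350 to 509. Both 4a2 and 4a3 are *Rps27l-FLAG* clones, and the part of the *Tet1*-low clones in the difference between lines was not tested. *Fgf5* (chr5:98254184-98277030, plus strand, 3 exons), a classic marker of the epiblast after implantation, had 31 fragments over all 9 total RPF libraries and 12 over the 6 IP libraries. Clone 2b12 had 9 and 5a1 had 0 in total RPFs. The 0 counts in 5a1, and in the IP of 2c3 and 2c4, allow up to 0.42, 0.531 and 0.67 CPM (3 counts, counting error only).

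*Epha2* (chr4:141301240-141329384, plus strand, 17 exons), a receptor tyrosine kinase for ephrin-A ligands, stood at 595, 494 and 457 normalized CPM in WT. It stood at 637, 505 and 497 in *Rps27-FLAG* and at 684, 561 and 658 in *Rps27l-FLAG*. Its highest clone, 4a2, was the lowest for *Trh*, *Lefty1* and *Nodal*, and its lowest, 5a3, was the highest for *Trh*, *Lefty2* and *Nodal*.

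The ligand *Nodal* (chr10:61417972-61425338, plus strand, 3 exons) had 156, 174 and 191 normalized CPM in WT, 135, 184 and 170 in *Rps27-FLAG* and 111, 141 and 174 in *Rps27l-FLAG*. The inhibitor *Lefty1* had 122, 190 and 184, then 145, 153 and 164, then 82.9, 156 and 141 in the same clones. *Lefty2* had 59.2, 98.1 and 118, then 80.9, 94.4 and 78.3, then 48.6, 101 and 43.3. In all 3 genes the lines overlapped, and clone 4a2 was low in all of them. Clone 4b7 differed between the paralogs, low in *Lefty2* but within the other clones in *Lefty1*. *Lefty1* took 76.6% of the fragments of the pair there (95% exact binomial interval 74 to 79), against 60.6% to 67.6% in the total RPFs of the other 8 clones. The IP library of 4b7 gave 76.9% (73.8 to 79.8), and those of the other 5 tagged clones 58.5% to 67.6%. The intervals cover counting error only, and 4b7 was 1 clone, so the difference has no replicate of its own beyond the pair of libraries.

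Set against all 10085 tested transcripts, the chosen genes ranged widely between the 9 clones. Their median range was 1.19 on the log2 scale against 0.48 for all, 8 of 9 exceeded that median, and 6 of 9 (*Lef1*, *Lefty2*, *Trh*, *Otx2*, *Lefty1* and *Pou3f1*) exceeded the 90th percentile of 1.10. *Nodal* (0.78) and *Epha2* (0.58) lay in between, and *Utf1* (0.39) lay below the median. These values took part in the choice of the genes. The median SD within lines was 0.41 for the genes and 0.16 for all transcripts, so the spread lay largely between clones of the same genotype. Clone 4b7 was the lowest for 4 genes (*Otx2*, *Pou3f1*, *Lef1* and *Lefty2*) and 4a2 for 3 (*Trh*, *Lefty1* and *Nodal*), and 5a3 was the highest for 3. How often these clones were at the ends over all tested transcripts was not counted, so this is not read as particular to these genes. Without 4b7 the median range was 1.01 and 3 of 9 exceeded the 90th percentile of 1.05. With the replicate number, which is the sequencing batch, removed as a block, the median range was 0.81 against 0.37 for all transcripts. Without the 4 clones in which *Tet1* was near 0, an alternative chosen after seeing the data, it was 0.94 against 0.32, but *Nodal* fell to a range of 0.17 and *Lefty1* to 0.42. This alternative also leaves out every replicate 1 clone.

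**Figure D3:**
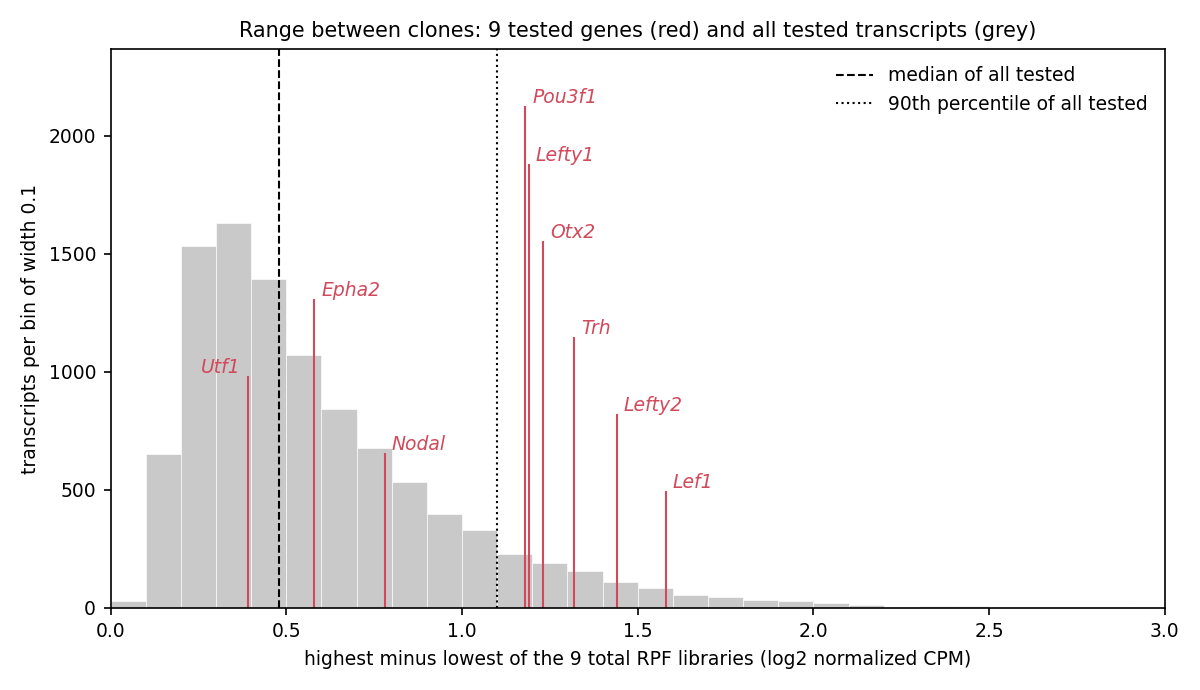
Histogram of the range over the 9 total RPF libraries (log2 normalized CPM, highest minus lowest) for all 10085 tested transcripts, with the 9 tested genes as red lines whose height has no meaning. The dashed line is the median of all transcripts (0.48) and the dotted line their 90th percentile (1.10); 6 of the 9 genes lie to the right of it.

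Most extremes among the clones recurred in the IP. The lowest of the 6 tagged clones was the same in total and IP RPFs for 7 of 9 genes, and the highest for 5 of 9. The exceptions for the lowest clone were *Pou3f1* and *Utf1*. The share of all tested transcripts was not counted, so this is not read as particular to these genes. Across transcripts, the deviations of a clone's IP and total libraries correlated at r = 0.468 to 0.79. *Lef1* in IP RPFs was 94.6, 63.1 and 59.4 normalized CPM in *Rps27-FLAG* and 55, 65 and 30.7 in *Rps27l-FLAG*, with 2b12 and 4b7 again at the ends. *Trh* was 303, 525 and 391, then 224, 303 and 277. The IP and total libraries of a clone share the culture, so this repeats the clones' values and is no independent sample of the lines.

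**Figure D4:**
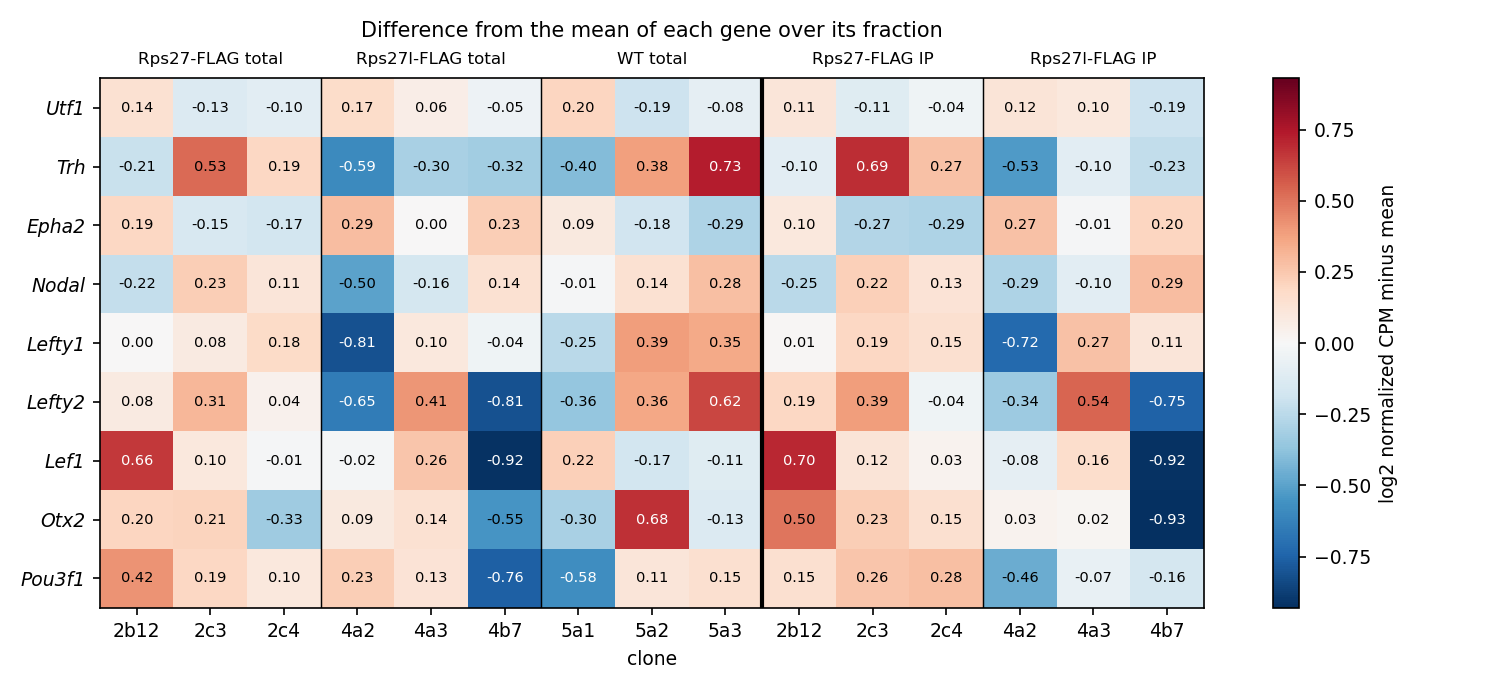
Difference of each library from the gene's mean over its fraction (log2 normalized CPM) for the 9 tested genes, clones in columns, total RPFs left of the thick line and IP RPFs right of it. Clone 4b7 is at -0.92 for Lef1 in both fractions, 2b12 at 0.66 and 0.70, and Utf1 stays between -0.19 and 0.20 in all libraries.

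Between lines, total RPFs addressed whether tagging either paralog changed what the cells translate. Over all 10085 transcripts no transcript passed an adjusted p of 0.05 (edgeR's quasi-likelihood test) in any of the 3 comparisons, 0 of 10085 in each, with 294, 574 and 580 at an unadjusted p under 0.05. For the chosen genes the differences are a description. The median log2 difference of the 9 genes was -0.22 for *Rps27l-FLAG* over WT and -0.28 for *Rps27l-FLAG* over *Rps27-FLAG*, beside 0 for all transcripts, and -0.09 for *Rps27-FLAG* over WT. The widest was *Trh*, at -0.71 (SE 0.254) in *Rps27l-FLAG* over WT and -0.60 (SE 0.254) over *Rps27-FLAG*, and it moved with single WT clones, to -0.96 without 5a1 and -0.44 without 5a3. *Lefty2* was at -0.50 (SE 0.312) against WT but at -0.99 without clone 4a3. *Lefty1* was at -0.38 (SE 0.218), and at -0.15 without 4a2. *Epha2* ran the other way, at 0.30 (SE 0.123). No gene of the 9 had all clones of a tagged line on one side of all WT clones, where 8.52% of all transcripts did for *Rps27-FLAG* and 9.65% for *Rps27l-FLAG*. With the replicate number as a block the *Trh* and *Epha2* differences from WT were -0.65 (SE 0.127) and 0.30 (SE 0.0645). With that block 0.00992% of all transcripts passed for *Rps27-FLAG* over WT, 1.43% for *Rps27l-FLAG* over WT and 1.36% for *Rps27l-FLAG* over *Rps27-FLAG*, and nothing is read from this for the chosen genes.

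IP and total RPFs of a tagged line were set against each other. The question was whether ribosomes carrying the tagged paralog were found more or less often on these mRNAs than ribosomes at large. With no IP from WT, the part of the pull-down procedure in such a difference was not tested, also where both lines share it. In *Rps27-FLAG* none of the 9 genes passed an adjusted p of 0.05, where 5.67% of all tested transcripts did. In *Rps27l-FLAG* again none passed, where 3.10% of all did. The median log2 ratio of IP over total was 0.08 and 0.11 for the 9 genes, beside -0.01 and -0.03 for all transcripts. At an unadjusted p under 0.05, *Utf1* in *Rps27-FLAG* was the only 1 of the 9 (0.26, SE 0.0912, unadjusted p = 0.0207 and adjusted p = 0.146 with edgeR), where 22.1% of all transcripts were. In *Rps27l-FLAG* none of the 9 was, where 17.4% of all were.

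This fit sets the fractions against the spread between clones, while IP and total libraries are pairs from the same clone. When the clone was fitted as a block, 5 of 9 genes passed in each line. The background was also large, 41.2% of all transcripts in *Rps27-FLAG* and 31.0% in *Rps27l-FLAG*, and a count of 5 in 9 is read as no more than that. *Utf1*, *Trh* and *Epha2* passed in both lines. *Utf1* had log2 ratios of 0.22, 0.27 and 0.31 in 2b12, 2c3 and 2c4 and 0.21, 0.29 and 0.11 in 4a2, 4a3 and 4b7. The blocked fits gave 0.26 (SE 0.0301, edgeR adjusted p = 1.67e-16) and 0.21 (SE 0.0294, adjusted p = 3.04e-08). The SDs of the 3 clone ratios were 0.04 and 0.09. The SEs and p-values of the blocked fits borrow the spread in part from all transcripts, so they do not measure the spread of these pairs alone. *Trh* was above 0 in all 6 clones, between 0.14 and 0.28, with blocked values of 0.21 (SE 0.031, adjusted p = 4.81e-10) and 0.20 (SE 0.0337, adjusted p = 1.92e-06). All 3 clones were above 0 for 28.9% of all transcripts in *Rps27-FLAG* and 23.7% in *Rps27l-FLAG*.

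*Epha2* was below 0 in all 6 clones, at -0.16, -0.20 and -0.19 in *Rps27-FLAG* and -0.10, -0.09 and -0.11 in *Rps27l-FLAG*. The blocked fits gave -0.18 (SE 0.0304, edgeR adjusted p = 3.72e-08) and -0.10 (SE 0.0278, adjusted p = 0.00459). All 3 clones were below 0 for 32.9% and 31.7% of all transcripts in these lines. *Epha2* has the longest CDS of the 10 genes, 2931 nt, and when the trend of the ratio with CDS length was removed in the same blocked fit its values were 0.01 (adjusted p = 0.866) and 0.07 (adjusted p = 0.101). *Utf1* and *Trh* still passed in both lines in that fit, with 0.24 and 0.21 for *Utf1* and 0.12 and 0.15 for *Trh*.

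The remaining calls with the block were made in 1 line each. In *Rps27-FLAG*, *Lef1* had ratios of 0.27, 0.25 and 0.28 (blocked 0.27, SE 0.0561, edgeR adjusted p = 1.75e-05) and *Otx2* 0.38, 0.11 and 0.56 (blocked 0.33, SE 0.0918, adjusted p = 0.00144). The SD of the 3 *Otx2* ratios was 0.23. *Otx2* was also the only 1 of the 9 genes whose IP libraries (34.1, 28.3 and 26.7 normalized CPM) all lay above the total libraries of this line, where 28.3% of all transcripts did not overlap. In *Rps27l-FLAG*, *Lefty1* had ratios of 0.06, 0.14 and 0.12 (blocked 0.11, SE 0.0426, edgeR adjusted p = 0.0385) and *Lefty2* 0.34, 0.16 and 0.09 (blocked 0.20, SE 0.0582, adjusted p = 0.00478). None of the 9 had non-overlapping fractions in *Rps27l-FLAG*, where 23.2% of all did. *Lef1* in *Rps27l-FLAG* was at 0.17 (adjusted p = 0.0551) with the block and passed at 0.19 (adjusted p = 0.0308) with the length trend removed. *Pou3f1* had the widest ratios, from -0.72 in 4a2 to 0.58 in 4b7, and passed in no fit.

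**Figure D5:**
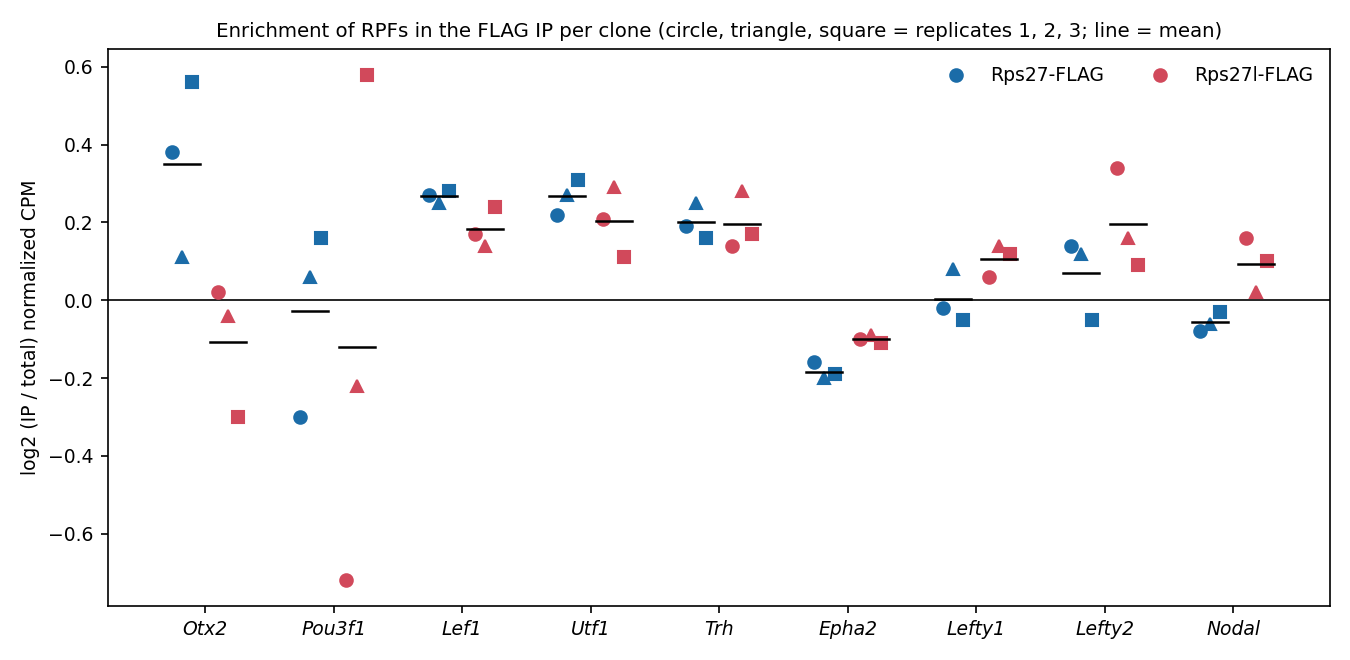
Log2 ratio of IP to total normalized CPM per clone for the 9 tested genes, blue Rps27-FLAG and red Rps27l-FLAG, with the mean of 3 clones as a line. Utf1, Trh and Lef1 lie above 0 and Epha2 below 0 in all 6 clones, while the ratios of the lines do not overlap for Otx2, Lef1, Epha2 and Nodal.

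Whether the IP ratio differed between the tagged lines was tested with clones as blocks. The limits were an adjusted p of 0.05 and an absolute log2 difference of 0.25. The genes were chosen with the spread between lines known, so this is no independent test of them. None of the 9 genes passed, where 0.565% of all transcripts did. *Otx2* had the widest difference, -0.39 (SE 0.141, edgeR adjusted p = 0.162), its *Rps27-FLAG* clones at 0.11 to 0.56 and its *Rps27l-FLAG* clones at -0.30 to 0.02. *Nodal* differed by 0.15 (SE 0.0554, adjusted p = 0.178), with *Rps27-FLAG* clones at -0.08, -0.06 and -0.03 and *Rps27l-FLAG* clones at 0.16, 0.02 and 0.10. The ratios of the lines did not overlap for *Otx2*, *Lef1*, *Epha2* and *Nodal*, 4 of 9 genes, where 16.2% of all transcripts did not. *Epha2* differed by 0.08 (SE 0.04, adjusted p = 0.386) and *Lefty1* by 0.11 (SE 0.0573, adjusted p = 0.466). The calls made with the block in 1 line only, those of *Otx2*, *Lef1*, *Lefty1* and *Lefty2*, are thus not shown to differ between the lines. In IP RPFs themselves, *Otx2*, *Pou3f1* and *Trh* were higher in all *Rps27-FLAG* clones than in all *Rps27l-FLAG* clones, 3 of 9 genes where 1411 of all 10085 transcripts did not overlap. The choice of the genes used these values, and nothing is read from them.

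Related genes were described by counts. Of 22 other formative genes, 21 were tested and none passed without the block in either line. With the clone as a block 11 were higher in the *Rps27-FLAG* IP and 1 lower, and in *Rps27l-FLAG* 6 were higher and 1 lower. Of all 10085 transcripts 1846 and 2308 were higher and lower in the first line and 1209 and 1919 in the second. Those higher in both lines included *Etv5* (0.23 and 0.15), a transcription factor of FGF signalling, and *Spry4* (0.20 and 0.10), a feedback inhibitor of that pathway. Their median range between clones was 0.64, and 4 of 21 exceeded the 90th percentile. *Sall2* had the widest, from 5.85 normalized CPM in 4b7 to 33.2 in 4a3. *Dnmt3b*, a de novo methyltransferase with a range of 0.95, was also lowest in 4b7, at 104 against 200 in 4a3. *Tcf15* and *Dusp6* had the next widest ranges (1.32 each) and were lowest in 5a2 and 2c3, and *Rbpj* was highest in 4b7.

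Of 21 further genes of the Nodal pathway, 17 were tested, and their median range of 0.52 was close to that of all transcripts. The co-receptor *Tdgf1* stood between 621 and 780 normalized CPM and the related ligand *Gdf3* between 197 and 337, whereas *Cer1*, a secreted antagonist, had a median of 0. None passed without the block. With it, 4 were higher and 4 lower in the *Rps27-FLAG* IP, and in *Rps27l-FLAG* the numbers were 2 and 3. Of all transcripts 41.2% and 31.0% passed with the block in these lines. *Tdgf1* was higher in both (0.08 and 0.20), as was the corepressor *Tgif1* (0.20 and 0.21). *Pcsk6*, a convertase that cleaves the Nodal precursor, was lower in both (-0.48 and -0.34), and *Furin*, another convertase, in *Rps27l-FLAG* (-0.46). The CDS of *Pcsk6* is 2877 nt and that of *Furin* 2379 nt, and whether the length trend carries these values was not tested.

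All 16 naive factors were tested, with a median range of 0.45. *Nanog* (598 to 689 normalized CPM), *Esrrb* (519 to 609) and *Zfp42* (860 to 993) varied little between clones, while *Dppa3* (2.73 to 14.9), *Tbx3* (150 to 339) and *Gbx2* (30.3 to 65.9) had log2 ranges of 2.42, 1.18 and 1.12, above the 90th percentile of all transcripts. *Dppa3* and *Tbx3* had opposite ends in 4a2, the lowest and the highest clone. Without the block, *Zfp42* was higher in the *Rps27l-FLAG* IP (0.23, edgeR adjusted p = 0.0447), where 3.10% of all transcripts passed. No naive factor passed in *Rps27-FLAG*, where 5.67% of all did. With the block, 9 rose and 2 fell in the *Rps27-FLAG* IP, and 6 rose and 2 fell in that of *Rps27l-FLAG*. Of all transcripts 41.2% and 31.0% passed with the block in these lines. Of 12 Wnt partners of *Lef1*, 10 were tested, *Apc*, a component of the beta-catenin destruction complex, was lower without the block in both lines (-0.71 and -0.61), and with it 2 rose and 3 fell (*Rps27-FLAG*), and 1 rose and 2 fell (*Rps27l-FLAG*). The CDS of *Apc* is 8526 nt, and the part of the length trend in its values was not tested. *Axin2*, a feedback target of Wnt signalling, was lower in both lines with the block (-0.37 and -0.48) and did not pass without it. Its CDS is 2520 nt, and the part of the length trend was not tested here either. The Wnt target *Sp5* did not pass the filter.

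Of 15 ephrin and Eph genes, 10 were tested. None passed without the block, and with it *Epha1* (-0.46) and *Ephb3* (-0.31) were lower in the *Rps27-FLAG* IP and *Ephb4* (-0.38) in *Rps27l-FLAG*. All have CDS of 2931 to 2979 nt, as long as that of *Epha2*. *Epha4* (2958 nt), *Epha7* (2994 nt) and *Ephb2* (2958 nt) are as long and did not pass with the block. They stood at 0.02, -0.06 and -0.12 in *Rps27-FLAG* and at 0.05, 0.13 and -0.16 in *Rps27l-FLAG*. The part of the length trend in these values was not tested. *Epha4* ranged from 59.6 to 171 normalized CPM between clones. Of 12 FGF genes, 10 were tested and none passed without the block. With it *Grb2* was higher (0.21) and *Sos1* lower (-0.22) in *Rps27-FLAG*, and *Sos1* (-0.24) and *Fgfr1* (-0.16) were lower in *Rps27l-FLAG*. Of all transcripts 41.2% and 31.0% passed with the block in these lines. None of the 6 lists had a gene that passed in the comparison of the IP ratios between lines, where 0.565% of all transcripts did.

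For the 3 genes with the widest range, the transcripts with the most similar profile over the 9 total RPF libraries were found by the root mean square (RMS) difference of log2 values centred on each transcript's mean. Nearest to *Lef1* were *Nrk* (RMS difference 0.15), *Slc4a2* (0.17) and *Klf12* (0.18), where the profile of *Lef1* itself had an RMS of 0.40. Nearest to *Lefty2* (RMS 0.47) were *Slc17a9* (0.15), *Tdrd12* (0.15) and *Cldn6* (0.18). Nearest to *Trh* (RMS 0.44) were *Bcor* (0.08), *Tmem79* (0.11) and *Map3k12* (0.13). None of these was among the 10 genes, and the nearest of 10085 transcripts over 9 libraries is a description that carries no test.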

How the data were processed

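The authors trimmed reads with cutadapt 2.4, removed duplicates by molecular identifiers with UMI-tools 1.0.1, aligned fragments to transcripts of GRCm38 with Bowtie2 2.3.4.3, kept unique alignments, and deposited counts of A sites per transcript, leaving out 15 codons at the start and 5 at the end of the CDS. The deposited counts cover 21727 transcripts. Symbols and positions came from GENCODE M21 (GRCm38), which holds 21713 of them and is another release than that of the authors. Each of the 15 columns is a library used here, with 0 further columns of per-sample values. Library totals were 3972152 to 8064166 counts. Intervals cover counting error only.

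After removal of 13 mitochondrially encoded transcripts, the 10085 transcripts that exceeded 2 CPM in 14 or more libraries were normalized by TMM, separately for IP and total RPFs, and tested with edgeR 4.0.16 in R 4.3.3 (quasi-likelihood, Benjamini-Hochberg). Fits used fraction within a tagged line, cell line for total RPFs, and cell line with clone and fraction within it for the difference in IP ratio (without *Tmod3*). Normalized CPM used library sizes scaled by TMM, with 0.5 counts added where log2 was taken. Python 3.11.15 and matplotlib 3.10.9 were used for windows and figures. On simulated data, of 200 transcripts changed by 1 (log2), the IP comparison in *Rps27-FLAG* recovered 78.5% with 15 false calls. With the clone as a block and a change of 0.5 it recovered 84%, with 12 false calls. The same in *Rps27l-FLAG* recovered 72% with 6 false calls, and the IP ratio between lines 60% with 3. Whether these shares hold for the real clones, or for changes smaller than 0.5 (log2), was not tested.

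IP and total libraries with the same number come from the same clone per the labels, and their deviations from the group means correlated at r = 0.468 to 0.79 in all 6 clones. Same-numbered total libraries of different lines share a sequencing batch (r = -0.164 to 0.713). No libraries of a group were copies (chi-squared per degree of freedom of at least 1.78). The alternatives were voom with limma 3.58.1, DESeq2 1.42.0 and its size factors, other filters, TMM over all libraries, the replicate block, the CDS length trend removed (loess, span 0.5), 5 counts added before log2, and each clone left out. All 10 genes were named, and the genes, the 6 related lists and the markers were chosen with earlier results of these data known. Some sequences and 1 gene of a related list are not reported here.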

Additional observations from a re-analysis of the deposited data

Results flagged for a closer look

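*Nodal* was picked out because its IP ratio ran in opposite directions in the tagged lines. All 3 *Rps27-FLAG* clones lay below 0, between -0.08 and -0.03 on the log2 scale, and all 3 *Rps27l-FLAG* clones lay above 0, between 0.02 and 0.16. The difference of 0.15 did not pass after adjustment (edgeR adjusted p = 0.178). The ratios of the lines did not overlap for 16.2% of all tested transcripts. Groups of 3 were too small for a search for outlying samples.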

How the results depend on the processing

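The clone block moved the IP comparisons most. With the replicate block 4154 transcripts and 5 of the 9 genes passed in *Rps27-FLAG*, and 3128 and 5 in *Rps27l-FLAG*. With the CDS length trend also removed these were 3136 and 4, and 2237 and 5. Leaving out 1 clone at a time without the block gave 0 to 1817 transcripts and 0 to 2 of the genes (*Utf1* and *Epha2*, without *Rps27-FLAG* replicate 1) in *Rps27-FLAG*, and 0 to 319 transcripts in *Rps27l-FLAG*. The counts of 0 came without *Rps27-FLAG* replicate 2 or 3 (946 and 1112 at an unadjusted p under 0.05) and without *Rps27l-FLAG* replicate 1 or 2 (1112 and 793). For the difference in IP ratio 57 transcripts passed, against 0 with no replicate block (142 unadjusted), 10 with DESeq2 and 28 with the block and the length trend removed. For total RPFs the replicate block gave 1 transcript (*Rps27-FLAG* over WT), 144 (*Rps27l-FLAG* over WT) and 137 (*Rps27l-FLAG* over *Rps27-FLAG*), and leaving out 1 clone gave 0 to 1 in both comparisons of *Rps27l-FLAG*. Tested values that changed sign were those of *Epha2* in the blocked fit without the length trend (0.01 and 0.07), of *Pou3f1* (-0.13 to 0.10 in *Rps27-FLAG* over its clones left out, above 0 without replicate 1, and -0.49 to 0.08 in *Rps27l-FLAG* and -0.42 to 0.13 for the difference, both above 0 without *Rps27l-FLAG* replicate 1) and of *Trh* for the difference (0.02 without the length trend and -0.05 to 0.02 over clones left out, above 0 without *Rps27-FLAG* replicate 2 or *Rps27l-FLAG* replicate 1 or 3). Of these, *Epha2* had passed in the blocked fit in both lines and no longer did without the length trend. Differences in total RPFs, which have no test, changed sign 17 times with 1 clone left out, among them *Otx2* in *Rps27-FLAG* over WT (-0.10, and 0.27 without WT replicate 2) and *Trh* there (-0.11, and 0.16 without WT replicate 3). The cause was not tested. Of the values under alternatives, 716 kept their direction and side of the threshold or stayed within the spread, 21 passed only under the alternative, 28 moved beyond the spread and 9 tested values changed sign. Depth limits *Fgf5* and *Pou3f1*.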
